A study of Mus musculus with 7 samples.

Results

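F-box proteins are the substrate-picking subunits of a large class of ubiquitin ligases. This account follows their transcripts in cells sorted by a Pax7 lineage mark from normocapnic and hypercapnic mice. Members were taken by symbol: every row of the expression table named Fbxl, Fbxo or Fbxw followed by a digit, except Fbxo30, Fbxo32 and Fbxo40, which gave 75 of the 23930 genes (18 Fbxl, 34 Fbxo and 23 Fbxw). The rule reads symbols and no measured value, although it was set with earlier results of these data known. Of the 7 libraries, 3 came from normocapnia (NC1, NC2 and NC3) and 4 from hypercapnia (HC1, HC2, HC3 and HC4), and values are listed in that order throughout. All mice were inducible Pax7-GFP reporters, given in the labels as C57/B6 littermates, in which tamoxifen switches on a fluorescent protein through a Cre driven from the Pax7 gene, so that cells expressing Pax7 and their progeny both carry the mark. From 12 weeks of age both groups spent 4 weeks in room air (normocapnia) or in a chamber with raised CO2 (hypercapnia), and cells were collected at 16 weeks. All mice were induced, and the study's methods place the tamoxifen chow in the early part of that exposure. The study's methods add a cardiotoxin injury of the leg muscles, which destroys myofibers and starts repair, some days before the cells were sorted. The labels mention neither this injury nor a culture step, while the title of the table names a time in hours that the study uses for cultured cells. The genotype label ends in a different number for each library (C57BL/6 for NC1, C57BL/7 for NC2 and so on to C57BL/12 for HC4), and nothing says whether a library is 1 mouse. P-values therefore measure the spread between these libraries, which may be technical.

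In an SCF ligase, Cul1 is the scaffold, a RING protein (Rbx1 or Rnf7) brings in the ubiquitin-loaded enzyme, Skp1 is the adaptor, and the F-box protein binds both Skp1 and the protein to be marked for the proteasome. The suffix gives the part that binds the substrate: WD40 repeats in Fbxw proteins, leucine-rich repeats in Fbxl proteins, and other or no known domains in Fbxo proteins. Skeletal muscle is best known in this family for Fbxo32 (atrogin-1), which is left out here. Other members act on cell cycle regulators, iron balance, glycoproteins, mitochondria and immune receptors.

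RPM stands for a gene's reads after each library was brought to the same total. The panel reads a single stretch (amplicon) of each gene, so RPM compares a gene between libraries, and is no measure of which of 2 genes has more transcript. Differences were tested with limma on log2(RPM + 1) over all 23930 genes. Log2 fold changes are hypercapnia over normocapnia on that scale and understate changes of genes near 1 RPM, and where a number stands in parentheses before an SE it is this log2 fold change. A gene was called at an unadjusted p under 0.05 with a fold change above 1.5 (0.585 on the log2 scale), after the thresholds the study used. Groups are said to be apart when every hypercapnia library lay on the same side of every normocapnia library.

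The share of F-box genes called between the groups was close to that of all genes. By limma 2 of the 75 members (2.67%) were called, Fbxo38 and Fbxl20, both lower in hypercapnia, where 2.57% of all genes were called, 1.14% lower and 1.43% higher, and 4.75% of those at a mean of 1 RPM or more. At an unadjusted p under 0.05 with no condition on the fold stood 6 members, 5 lower (among them Fbxo22, Fbxl4, Fbxo38 and Fbxl20) and 1 higher (Fbxw9), against 4.66% of all genes (2.48% lower) and 7.58% of those at 1 RPM or more. All 6 averaged at least 1 RPM, and at this threshold the share of members was above that of all genes. That difference in share was not tested, and the count changed with the processing. Of the 42 members that averaged at least 1 RPM, 5 had their groups apart (4 lower, among them Fbxo22, Fbxo45 and Fbxl4, and Fbxw9 higher), against 7.72% of the 12504 genes at that level (3.63% lower, 4.09% higher). This too was a larger share than over all genes, and the difference was not tested. With p-values adjusted by Benjamini and Hochberg over the whole table, limma left 0 members and 0 genes at 0.05. In edgeR and DESeq2, too, 0 members passed with adjustment, while DESeq2 passed 29 genes.

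Promoter sequence from RefSeq (build GRCm38.p6) is shown for some of the members that stood out in this comparison, so that the elements named next can be seen in place. Each line gives the 150 bases before the annotated start, 5′ to 3′ on the strand of the gene, and capitals mark a match to a searched motif. The windows are chr9:55208785-55208934 (plus strand) for Fbxo22, chr11:98149617-98149766 (minus strand) for Fbxl20, chr8:85059969-85060118 (plus strand) for Fbxw9 and chr4:22357393-22357542 (plus strand) for Fbxl4. Fbxo45 had no entry, and no sequence is shown for Fbxo38.
Fbxo22: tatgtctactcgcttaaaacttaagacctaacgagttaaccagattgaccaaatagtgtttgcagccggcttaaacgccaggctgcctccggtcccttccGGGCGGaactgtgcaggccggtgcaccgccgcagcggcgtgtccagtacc
Fbxl20: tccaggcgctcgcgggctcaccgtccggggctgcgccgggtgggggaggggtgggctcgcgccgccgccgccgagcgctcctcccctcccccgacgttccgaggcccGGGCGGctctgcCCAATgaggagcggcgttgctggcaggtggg
Fbxw9: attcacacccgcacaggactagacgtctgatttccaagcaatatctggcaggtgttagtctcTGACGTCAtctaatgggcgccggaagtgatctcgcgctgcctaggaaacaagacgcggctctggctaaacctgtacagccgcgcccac
Fbxl4: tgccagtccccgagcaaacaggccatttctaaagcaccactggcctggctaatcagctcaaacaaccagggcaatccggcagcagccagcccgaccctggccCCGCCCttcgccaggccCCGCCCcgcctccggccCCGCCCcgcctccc

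The searched motifs were the E-box CACGTG, which Myc can bind, the cAMP response element TGACGTCA, the CCAAT box, the GC box GGGCGG and the FoxO site GTAAACA, each on both strands. The capitals are a GC box at -50 in Fbxo22, a GC box at -43 with a CCAAT box at -31 in Fbxl20, a cAMP response element at -88 in Fbxw9, and 3 GC boxes on the opposite strand at -48, -31 and -14 in Fbxl4, none of them overlapping another. Over windows of 300 bases (250 before and 50 after the start), which 57 of the 75 members had, 33 members (57.9%) held a GC box, against 35.9% of 27025 promoters. A CCAAT box was found in 16 members (28.1%, against 37.9%), an E-box in 3 (Fbxl2, Fbxl22 and Fbxo10, 5.26% against 7.24%) and a cAMP response element in Fbxw9 alone (1.75% against 1.88%). The FoxO letters were in 0 of 57 member windows and in 3.55% of all promoters. These matches are descriptions of the sequence and not of binding.

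Library totals ran from 14527445 to 23388710 reads, so that a read was worth 0.0428 to 0.0688 RPM and 3 reads, taken as the floor, 0.128 to 0.207 RPM. The counts cover sampling of reads only. NC3 had the smallest total, the fewest genes at 1 RPM (10619, against up to 13932 in HC4) and the largest share of reads in its 10 most abundant genes (16.6%, against 8.36% to 12.1% in the other 6). The hypercapnia libraries formed 2 pairs: a chi-square of the reads over genes, divided by its degrees of freedom, was 24.6 between HC1 and HC2 and 27.3 between HC3 and HC4, and 105 to 528 in the other 19 library pairs. The labels name no shared animal, batch or run for them. Pax7, whose Cre-activated lineage mark and not its own level was sorted on, ranged from 4.34 RPM (NC3) and 8.25 RPM (NC2) to 268 RPM (NC1), with 20.1 to 79.5 RPM in hypercapnia. All 10 satellite cell markers were at 1 RPM or more on average, and their summed level was 510 to 2295 RPM in normocapnia and 671 to 1154 RPM in hypercapnia. The 10 macrophage markers summed to 11426 to 33356 RPM in normocapnia and 18704 to 23616 RPM in hypercapnia, and of them Adgre1 was called higher. Macrophage markers were thus read strongly in every library, and the F-box values are those of all sorted cells together, not of satellite cells alone. The sums of the 6 endothelial, 6 fibro-adipogenic, 6 myofiber, 6 neutrophil and 5 lymphocyte markers likewise overlapped between the groups, with 0 genes called. Within hypercapnia the endothelial sum followed the pairs, at 58.7 and 45.5 RPM in HC1 and HC2 and 491 and 381 RPM in HC3 and HC4. In bulk RNA of this kind, fewer cells of a type and less RNA per cell cannot be told apart.

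Detection split the family. At 50 RPM or more on average were 9 members (among them Fbxo11, Fbxw8, Fbxl5, Fbxo42, Fbxo22, Fbxo33, Fbxl17 and Fbxo3), 24 lay between 10 and 50 RPM and 9 between 1 and 10 RPM. A further 21 had some reads but a mean under 1 RPM. The remaining 12 had 0 reads in all 7 libraries: Fbxl13, Fbxo43 (Emi2, which holds eggs in meiosis) and 10 Fbxw genes. For those 12 the data allow a level of up to 3 reads, or 0.128 to 0.207 RPM depending on the library, where their amplicons work. A single amplicon can read poorly: C1qa averaged 0.148 RPM beside 644 RPM for C1qb, whose product joins it in the same complement protein. Few reads here therefore do not show low expression.

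The unread Fbxw genes lie in 2 runs of neighbors. In the RefSeq gene order 11 members follow each other with no other protein-coding gene between (Fbxw28, Fbxw22, Fbxw16, Fbxw19, Fbxw23, Fbxw15, Fbxw24, Fbxw25, Fbxw18, Fbxw26 and Fbxw27), and Fbxw21, Fbxw13 and Fbxw20 form a run of 3. In the run of 11, 8 genes had 0 reads, and in the run of 3, 2 had 0 reads. Of the rest, Fbxw15, Fbxw18 and Fbxw21 had 1 read each over all libraries, and Fbxw27 had 12. These rodent genes are close copies of each other, so reads of one could be counted for another, and their values are uncertain. Fbxw17, which is in neither run, was measured at 10.3, 7.57 and 3.03 RPM in normocapnia and at 12.8, 14.1, 9.68 and 7.85 RPM in hypercapnia, with overlapping groups (log2 fold change 0.70, SE 0.41, and 0.27 without NC3).

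Genes known mainly from germ cells or the embryo had few reads as well, and those known from neurons were split. All 6 members of a list for germline or embryonic stem cells (Fbxo15, Fbxo24, Fbxo39, Fbxo47, Fbxl13 and Fbxw10) stayed under 1 RPM on average, Fbxo47 being the highest of them with 0.20 to 1.69 RPM. Of the neuronal list, Fbxo41 had 7 reads and Fbxl16 had 18 over all libraries, while Fbxl20 and Fbxo45 were well measured.

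Over the 42 members at 1 RPM or more the median log2 fold change was 0.06 (quartiles -0.23 and 0.23, range -0.63 to 0.87), and over all genes at that level it was 0.16 (quartiles -0.19 and 0.51). Without NC1 the median of these members was 0.18 (0.36 over all genes), and without NC3 the members' median was -0.21. Fold changes of 34 members (81%) were within 1.5-fold, against 72.6% of all genes. The side of 0 depended on scaling. With RPM as deposited 24 members were above 0 and 18 below, with median-of-ratios scaling 18 were above and 24 below, and with quantile normalization 13 were above and 29 below, as the median of all genes moved from 0.16 to 0.04 and to -0.01. Under all 3 scalings the median of the members (0.06, -0.06 and -0.17) lay below that of all genes. The medians of the families at 1 RPM or more were 0.00 for the 12 Fbxl, 0.04 for the 22 Fbxo and 0.17 for the 8 Fbxw members.

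**Figure D1:**
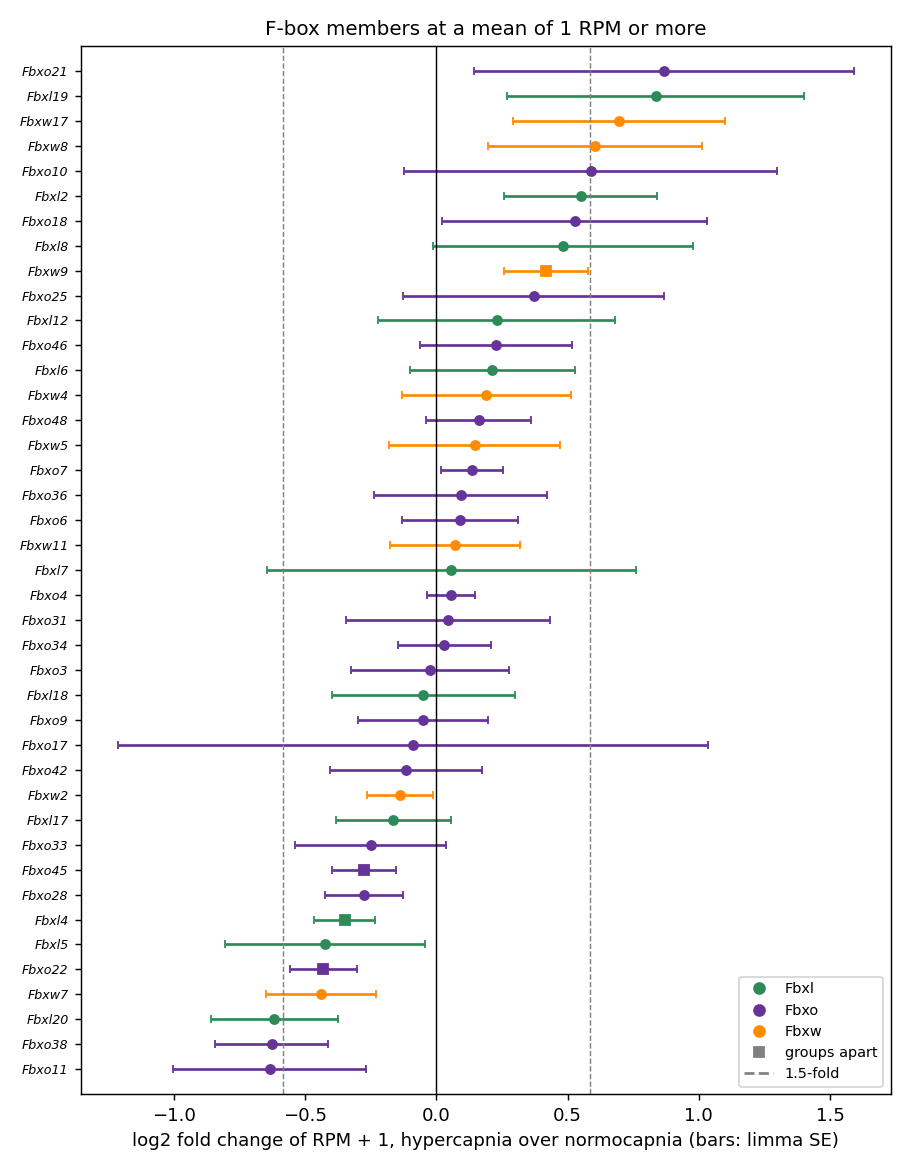
Log2 fold change of RPM + 1 (x axis, hypercapnia over normocapnia) for 41 members at a mean of 1 RPM or more (y axis), with the limma SE as the bar, the family as the color and squares where the groups were apart. The 33 members between the dashed 1.5-fold lines are in the middle, the 4 squares have short bars, and the widest bars are those of Fbxo17, at -0.09, and of Fbxo21, at 0.87.

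Both called members overlapped between the groups. Fbxo38, whose protein sends the T cell receptor PD-1 for degradation, was at 46.0, 53.8 and 75.2 RPM in normocapnia and at 35.7, 36.0, 46.2 and 30.2 RPM in hypercapnia. HC3 thus lay at the level of NC1, and NC3 stood above the rest (means 58.3 ± 15.1 RPM, n = 3, and 37.0 ± 6.69 RPM, n = 4). The log2 fold change was -0.63 (SE 0.21, adjusted p = 0.915). The call was kept in 6 of the 16 alternatives (-0.91 to -0.64) and lost in 10 (-0.77 to -0.43, the last without NC3). In 6 of those 10 the fold stayed above 1.5 and p rose past 0.05.

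Fbxl20, known at the synapse for the turnover of a vesicle-release protein, was at 51.2, 66.1 and 33.6 RPM in normocapnia and at 26.2, 33.1, 34.2 and 32.1 RPM in hypercapnia. NC3 lay among the hypercapnia libraries (means 50.3 ± 16.3 RPM, n = 3, and 31.4 ± 3.61 RPM, n = 4). The log2 fold change was -0.62 (SE 0.24, adjusted p = 0.915), and 7 of the 16 alternatives kept the call (-0.88 to -0.63). The other 9 lost it (-0.66 to -0.40, the last without NC2), 5 of them with the fold still above 1.5.

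Fbxo22, Fbxl4 and Fbxo45 were lower with the groups apart but by less than 1.5-fold. Fbxo22, which targets histone demethylases of the Kdm4 group and the heme-binding repressor Bach1, was at 64.2, 90.9 and 73.6 RPM in normocapnia and at 57.4, 58.0, 58.1 and 49.9 RPM in hypercapnia. All hypercapnia libraries stood below NC1, the lowest of the controls (log2 fold change -0.43, SE 0.13, adjusted p = 0.911). Fbxl4, a mitochondrial protein that restrains mitophagy, was at 16.0, 11.8 and 12.3 RPM in normocapnia and at 9.50, 10.4, 9.68 and 11.2 RPM in hypercapnia (-0.35, SE 0.12, adjusted p = 0.915). HC4 was close under NC2, so that the gap between the groups was narrow. Fbxo45, which works with the neuronal ligase Mycbp2 in place of Cul1, was at 25.3, 18.6 and 19.5 RPM in normocapnia and at 17.5, 15.2, 17.6 and 18.5 RPM in hypercapnia (-0.28, SE 0.12). Here too HC4 nearly reached NC2. These 3 fold changes kept their sign and stayed uncalled in all 16 alternatives, but without NC1 those of Fbxl4 and Fbxo45 shrank to -0.22 and -0.15.

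Fbxw9 was the only member at a p under 0.05 that was higher in hypercapnia, among the libraries and fit used here. It was at 19.5, 18.0 and 13.1 RPM in normocapnia and at 19.6, 23.0, 22.2 and 26.1 RPM in hypercapnia. HC1 exceeded NC1 by little, and NC3 was the lowest of all (0.42, SE 0.16, adjusted p = 0.915). The fold stayed under 1.5 and the gene uncalled in all 16 alternatives, and without NC3 the log2 fold change was 0.26.

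**Figure D2:**
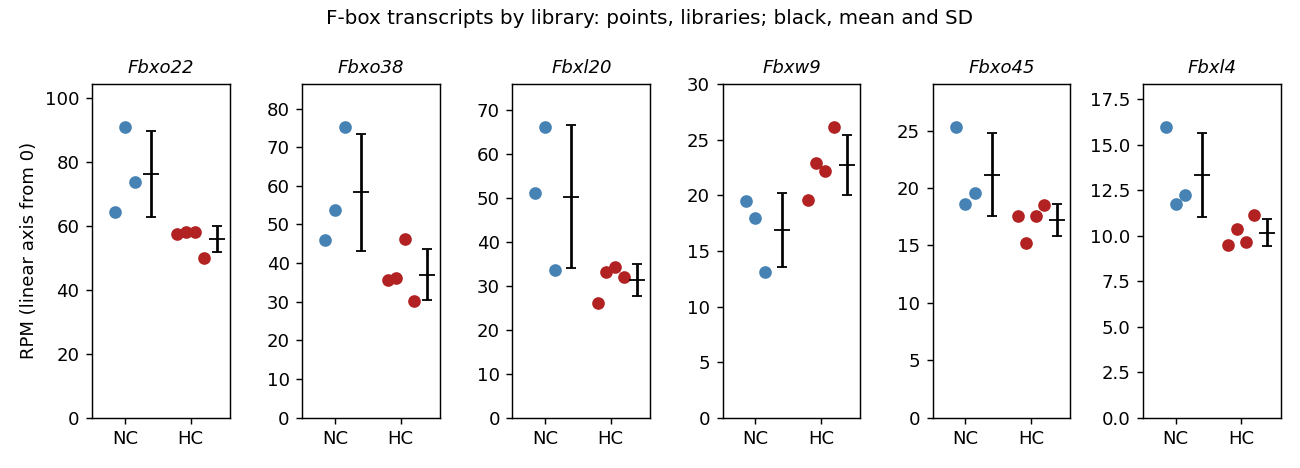
RPM (y axes, linear from 0) of 6 members that were at p under 0.05 or had groups apart at 10 RPM or more, by group (x axis, NC and HC), with a point per library and the mean and SD in black. The points of NC and HC do not overlap for Fbxo22, Fbxw9, Fbxo45 and Fbxl4, and they overlap for Fbxo38 and Fbxl20.

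In several of the most abundant members by RPM, 1 normocapnia library stood away from the rest. Fbxo11, a ligase for the transcription factor Bcl6, was at 261, 218 and 574 RPM in normocapnia and at 202, 165, 215 and 249 RPM in hypercapnia. NC3 was the outlying library and the other 2 controls lay within or close to the hypercapnia range (log2 fold change -0.63, SE 0.37). Without NC3 the log2 fold change was -0.21, whereas edgeR without a filter (-0.99) and DESeq2 (-1.09) called it lower.

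Fbxl5, the iron sensor that controls the iron-regulatory protein Irp2, was at 98.6, 279 and 119 RPM in normocapnia and at 131, 96.5, 100.3 and 117 RPM in hypercapnia. The excess was in NC2 alone (log2 fold change -0.42, SE 0.38), and without NC2 the log2 fold change was 0.03. Fbxo42, which binds p53, also peaked in NC2, with 57.4, 119 and 60.9 RPM in normocapnia and 62.9, 85.7, 66.0 and 63.1 RPM in hypercapnia (-0.11, SE 0.29), and without NC2 it was 0.22. Both genes gave overlapping groups.

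Fbxw8, the F-box partner of the scaffold Cul7, went the other way in NC3, with 165, 121 and 49.9 RPM in normocapnia and 141, 160, 151 and 158 RPM in hypercapnia (0.60, SE 0.41). Its hypercapnia libraries were close together and within the range of the controls, and without NC3 the log2 fold change was 0.11. Fbxo33, a ligase for the RNA- and DNA-binding protein Ybx1, was at 44.1, 77.7 and 87.1 RPM and at 69.9, 61.7, 52.3 and 43.7 RPM (-0.25, SE 0.29, and -0.55 without NC1 and -0.062 without NC3). Fbxl17, which clears wrongly paired BTB-domain proteins, was at 91.0, 54.3 and 53.6 RPM and at 51.2, 52.4, 62.0 and 64.7 RPM (-0.16, SE 0.22), with NC1 as the high library. Groups overlapped for all 3.

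Among the members that act on the cell cycle and growth, none of 11 was at p under 0.05. Of all genes 4.66% were, and 7.58% of those at 1 RPM or more, shares that give fewer than 1 of 11. Fbxw7, the ligase for cyclin E, Myc, Jun and Notch, was at 13.5, 21.4 and 22.0 RPM in normocapnia and at 16.2, 13.4, 13.5 and 11.0 RPM in hypercapnia (-0.44, SE 0.21). NC1 lay within the hypercapnia libraries, and without NC1 the gene was called lower (-0.65). Fbxw11, a β-TrCP that recognizes phosphorylated β-catenin and IκB, was at 41.9, 55.8 and 26.8 RPM and at 41.3, 46.1, 42.5 and 37.8 RPM. Its log2 fold change was 0.07 (SE 0.25), changed sign with both other scalings and was -0.20 without NC3. Fbxo5 (Emi1), the inhibitor of the anaphase-promoting complex that dividing cells make, had few reads, with 13, 2 and 1 reads in normocapnia and 3, 1, 8 and 5 reads in hypercapnia (0.07 to 0.58 RPM and 0.05 to 0.50 RPM). Fbxo4 had the narrowest range of the 42 members, with 9.01 to 11.8 RPM over all 7 libraries (1.31-fold, log2 fold change 0.06, SE 0.09).

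For mitochondria and muscle, Fbxo7, a partner of parkin and the proteasome, was at 19.3, 17.4 and 14.0 RPM in normocapnia and at 20.8, 17.7, 18.4 and 17.5 RPM in hypercapnia (0.14, SE 0.12). The groups overlapped, and the sign was lost with median-of-ratios scaling. Fbxl22, a protein of the sarcomere, was at 2.01, 0.43 and 0.41 RPM in normocapnia and at 0.30, 0.25, 1.31 and 0.27 RPM in hypercapnia. Its higher values were in NC1 and HC3, with 45 and 21 reads, and it had 4 to 10 reads in each of the other 5 libraries. The summed myofiber markers were 4411 RPM in NC1 and 1161 RPM in HC3, and 239 to 2094 RPM in the others. Their part in the value of Fbxl22 was not tested.

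Several members differed more between normocapnia libraries than between the groups. The widest ranges at 10 RPM or more on average were those of Fbxo17 (25.6-fold between the highest and the lowest library), Fbxo21 (9.71-fold) and Fbxo10 (8.82-fold). Fbxo17, of the subfamily that binds glycoproteins, was at 44.9, 1.75 and 2.89 RPM in normocapnia and at 3.34, 4.02, 14.9 and 7.79 RPM in hypercapnia. Fbxo21 was at 58.8, 20.1 and 6.06 RPM and at 30.5, 33.9, 37.6 and 47.2 RPM, and had the highest log2 fold change of the 42 members (0.87, SE 0.72). Fbxo10, reported to act on the survival protein Bcl2, was at 37.0, 7.87 and 4.20 RPM and at 14.8, 12.9, 21.4 and 21.0 RPM (0.59, SE 0.71). In all 3 genes the highest library was NC1, which had the most Pax7 (268 RPM), and in Fbxo21 and Fbxo10 the lowest was NC3, which had the least (4.34 RPM). The part of cell makeup in these values was not tested. Without NC1, Fbxo21 (1.63) and Fbxo10 (1.42) were called higher, and without NC3 their log2 fold changes were 0.09 and -0.02.

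Of the glycoprotein-binding subfamily only Fbxo17 and Fbxo6 reached a mean of 1 RPM. Fbxo6 was at 4.77 to 7.44 RPM in normocapnia and at 5.08 to 8.82 RPM in hypercapnia, while Fbxo2 had 1 read in all libraries together, and Fbxo27 and Fbxo44 had 62 and 60. The immune list of 8 members (Fbxo3, Fbxl2, Fbxl19, Fbxo10, Fbxo11, Fbxo38, Fbxl15 and Fbxo21) had Fbxo38 as its single call. Of all genes 2.57% were called, and 4.75% of those at 1 RPM or more. The log2 fold changes of the immune list ran from -0.63 to 0.87 at 1 RPM or more. Fbxo18 (Fbh1), a DNA helicase, was at 12.2 to 48.3 RPM and at 31.7 to 55.7 RPM (0.53, SE 0.51), with overlapping groups, and its log2 fold change was 0.91 without NC2 and -0.037 without NC3.

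NC3 accounted for many of the extremes. Over the 42 members NC3 was the lowest library in 20 (47.6%), and over all genes at 1 RPM or more in 49%. NC1 was the highest library in 15 (35.7%, against 31.4% of all genes) and NC2 in 12 (28.6%, against 15.7%). The median deviation from the mean over libraries was -0.46 in NC3 for the members and -0.51 for all genes, on the log2 scale. In the 4 hypercapnia libraries the same median lay between -0.05 and 0.08 for the members. The members summed to 1679, 1797 and 1578 RPM in normocapnia and to 1387, 1408, 1464 and 1434 RPM in hypercapnia. The sum was lower in every hypercapnia library, but this rested on Fbxo11 in NC3 (574 RPM). Without Fbxo11 the sums were 1418, 1579 and 1004 RPM in normocapnia and 1185 to 1249 RPM in hypercapnia, with NC3 the lowest of all.

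**Figure D3:**
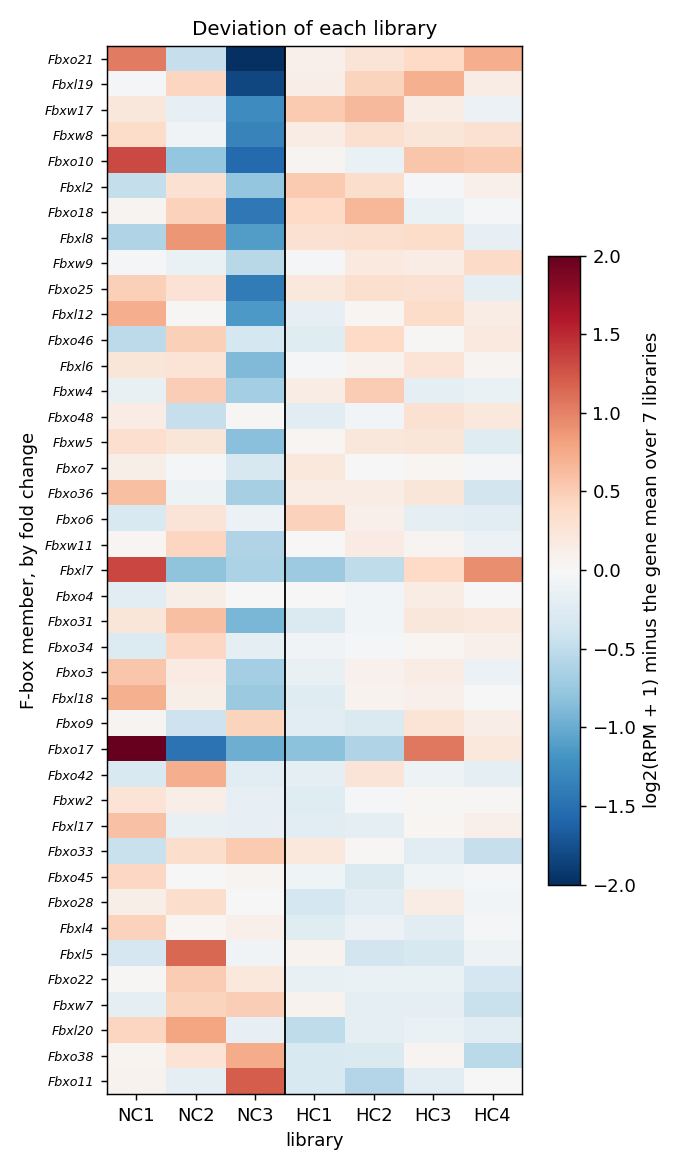
Deviation of log2(RPM + 1) from the mean of each gene over the 7 libraries (color, blue below and red above) for 41 members at 1 RPM or more (y axis, ordered by fold change) in each library (x axis, with a line between normocapnia and hypercapnia). NC3 is blue in most members, strong colors are mostly in NC1 to NC3, and the hypercapnia libraries are pale.

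The partners of the F-box proteins gave a similar picture. Skp1a, the adaptor, was at 454, 185 and 212 RPM in normocapnia and at 240, 186, 327 and 301 RPM in hypercapnia (-0.02, SE 0.38). Cul1, the scaffold, was called lower, with 90.2, 69.7 and 122 RPM against 49.6, 42.7, 76.6 and 55.7 RPM (-0.73, SE 0.27, adjusted p = 0.915). HC3 lay above NC2, so the groups overlapped. The call was kept in 8 of the 16 alternatives (-1.0 to -0.69) and lost in 8 (-0.87 to -0.52, the last without NC3), 7 of these with the fold above 1.5. The 38 partner genes measured were 3 SCF core subunits, 15 ubiquitin-conjugating and NEDD8-cycle genes, 13 genes of the COP9 signalosome and of F-box exchange, and 7 F-box genes with other names. Of the 38, 36 averaged 1 RPM or more. Cul1 was the only call (2.57% of all genes were called, and 4.75% of those at 1 RPM or more). The median of the partner genes at 1 RPM or more was 0.01, and 0 had groups apart (7.72% of all genes at that level).

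Among F-box genes with other names, Skp2, the ligase for the cell cycle inhibitor p27, was at 53.8, 13.9 and 4.82 RPM in normocapnia and at 30.4, 25.1, 31.4 and 24.5 RPM in hypercapnia (0.77, SE 0.75). It was high in NC1 and low in NC3, as Fbxo21 and Fbxo10 were. Without NC1 it was called higher (1.62), and without NC3 its log2 fold change was 0.0052. Kdm2a, a histone demethylase with an F-box, was at 25.0, 29.2 and 21.0 RPM and at 20.7, 21.4, 16.9 and 19.3 RPM (-0.33, SE 0.13).

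Transcripts of 28 proteins known as substrates of F-box ligases were read beside them. Of these, 27 averaged 1 RPM or more, and 0 of the 28 were called. Over all genes 2.57% were called, and 4.75% of those at 1 RPM or more. Nfe2l2, the regulator of the oxidative stress response that β-TrCP can target, was at 132, 172 and 155 RPM in normocapnia and at 118, 94.4, 135 and 118 RPM in hypercapnia (-0.39, SE 0.15, adjusted p = 0.915). HC3 lay just above NC1. E2f1, a transcription factor of S phase named here after its values were seen, was the only substrate gene with groups apart (7.72% of all genes at 1 RPM or more), at 36.2, 27.9 and 9.78 RPM against 46.5, 59.4, 49.1 and 38.9 RPM (1.11, SE 0.46). It was called higher in 8 of the 16 alternatives (0.92 to 1.47), and without NC3 its log2 fold change was 0.58. The median of the substrate transcripts at 1 RPM or more was 0.18, against 0.16 for all genes. RNA levels do not show how much of these proteins was degraded.

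**Figure D4:**
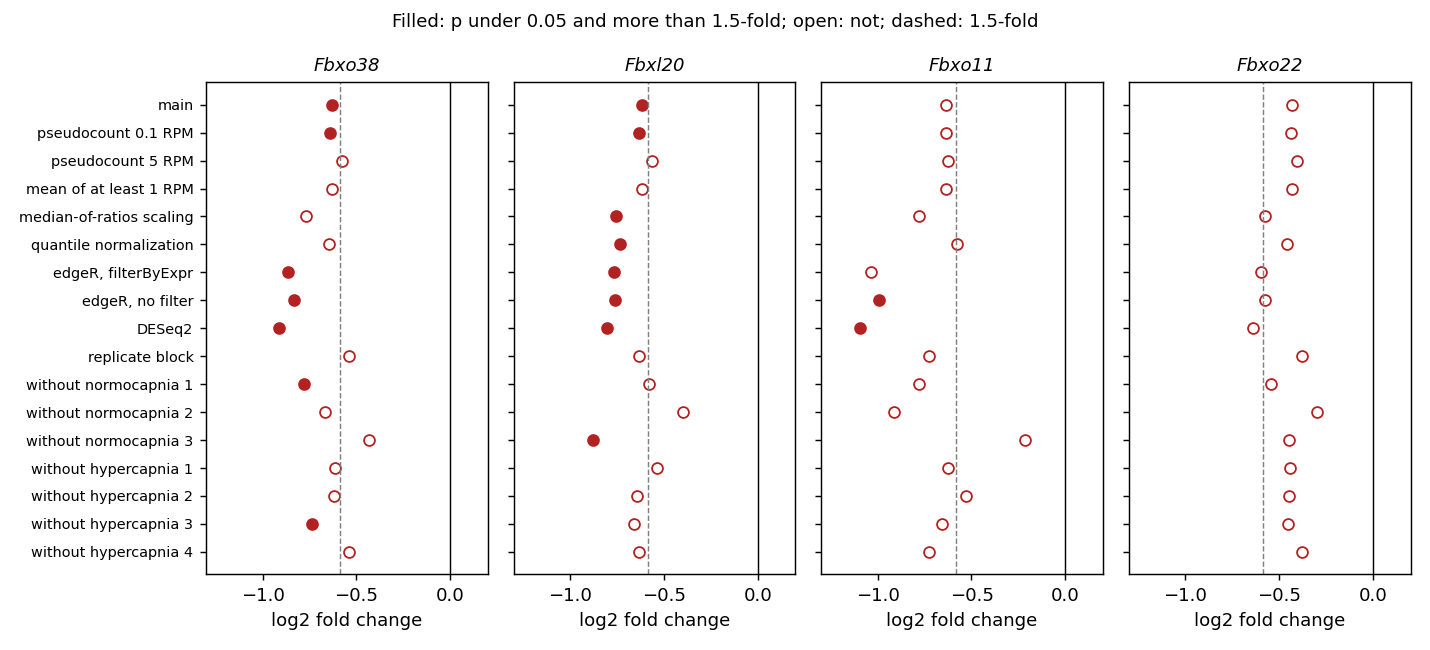
Log2 fold change (x axis) of Fbxo38, Fbxl20, Fbxo11 and Fbxo22 in the analysis as reported and in each of the 16 alternatives (y axis), filled where the gene was called and open where it was not. Every point is below 0, Fbxo22 is open in every row, and Fbxo11 moves from -1.09 (DESeq2) to -0.21 (without NC3).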

How the data were processed

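RNA of Pax7-GFP+ cells sorted from hind leg muscle was made into AmpliSeq libraries (3 normocapnia, 4 hypercapnia) and read on an Ion S5 instrument. The authors deposited 1 table of RPM, in which reads assigned to the amplicons are scaled to the same total in each library. Neither aligner nor genome build is given in the sources used here. Columns were matched to samples by the barcode in the labels. Whole reads were recovered from the RPM steps (100% of values within 0.05 reads), giving the totals above. All library pairs differed beyond counting noise (chi-square over degrees of freedom at least 24.6), HC1 and HC2, and HC3 and HC4, by the least, and each library was counted as 1 sample.

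limma 3.58.1 (R 4.3.3) with empirical Bayes moderation was fitted on log2(RPM + 1) over all 23930 genes, with no filter and no covariate. Alternatives were pseudocounts of 0.1 and 5 RPM, a mean of at least 1 RPM, median-of-ratios scaling, quantile normalization, DESeq2 1.42.0 and edgeR 4.0.16 (quasi-likelihood, filterByExpr or no filter) on recovered reads, a replicate block, and leaving out each library. The fit was tested on simulated libraries of this comparison (23930 genes, with 100 at 1 RPM or more changed per fold size). All genes were drawn at the same dispersion, with equal spread in both groups and independent libraries. The libraries here differ from that, so the rates describe those settings only. In them limma called 82% of 2-fold and 100% of 4-fold changes at a dispersion of 0.05, and 22% and 53% at 0.4. Among genes left unchanged, counting only those that also reached 1 RPM, limma called 0.927% at a dispersion of 0.05 and 5.81% at 0.4.

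The members, gene lists and rule for named genes were chosen with earlier results of these data known, and lists were written from general knowledge. Values in every library are given for members at p under 0.05, members with groups apart at 10 RPM or more, the 8 most abundant members, and Fbxl5, Fbxw7, Fbxw11, Fbxo5, Fbxo7, Fbxl4 and Fbxl22. Skp1a, Cul1, Skp2 and listed genes at p under 0.05 were added. Fbxo21, Fbxo10, Fbxo17, Fbxw17 and E2f1 were named after their values were seen. For 1 member no result of its own is reported here, while counts over the members include it. Of the listed genes, Fbxw14, Rbx1, Ube2d2, Dcun1d1, Gps1 and Cops9 were not analysed here. Promoters are those of RefSeq for GRCm38.p6, matched by symbol (Fbxo18 as Fbh1).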

Additional observations from a re-analysis of the deposited data

Results flagged for a closer look

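In 3 of the 23 named genes, 1 hypercapnia library stood far from the other 3 by Dixon's test, which chance gives in about 1 of 20 groups. Fbxo42 was highest in HC2, at 85.7 RPM, with 62.9 to 66.0 RPM in the others. Fbxo22 was lowest in HC4, at 49.9 RPM, with 57.4 to 58.1 RPM in the others, and without HC4 its log2 fold change was -0.38. Fbxl22 was highest in HC3, at 1.31 RPM, with 0.25 to 0.30 RPM in the others. The test was run on the 4 hypercapnia libraries and not on the 3 of normocapnia.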

How the results depend on the processing

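The 2 called members (2.57% of all genes called) became 0 with a pseudocount of 5 RPM (1.83% of all genes) or the filter at 1 RPM (4.46%), 3 with a pseudocount of 0.1 RPM (3.52%) and in edgeR (6.03%), 2 with median-of-ratios (2.56%) and quantile scaling (2.9%; Fbxl20 but not Fbxo38), 4 in edgeR without a filter (4.38%) and in DESeq2 (5.45%; all lower), and 0 to 5 when a library was left out (0 to 2 higher, 0 to 3 lower; 1.57% to 8.32% of all genes). Without NC1 the 5 included Fbxo38, Fbxw7, Fbxo21 and Fbxo10 (6.67% of members, against 8.32% of all genes), and without NC2 the 2 were Fbxl2 and Fbxl8, both higher (5.04% of all genes). Without HC1 or HC2 there were 0, and without HC4 there was 1, neither Fbxo38 nor Fbxl20. The 6 members at p under 0.05 (1114 of all genes) became 1 with the filter (562 genes), 2 with the replicate block (1205) and 3 with quantile normalization (1214). They became 7 with median-of-ratios scaling (1098) and 9 without NC1 (2648). The 5 members with groups apart became 5 to 14 when a library was left out (14 without NC1, 12 without NC2, 11 without NC3 and 8 without HC3, where 29%, 20.7%, 16.1% and 11.9% of all genes were apart). The call in SCF partners became 0 with the filter and with quantile normalization, 3 in edgeR with and without its filter, 4 in DESeq2 (5.45% of all genes), and 0 to 7 without a library (7 without NC1, 8.32% of all genes, and 5 without NC2, 5.04%). Over all genes 615 calls became 1049 in edgeR without a filter, 1304 in DESeq2 and 376 to 1990 without a library. The median log2 fold change of all members, 0.00, was -0.069 with quantile normalization, -0.11 in edgeR, -0.17 in DESeq2 and -0.062 to 0.018 without a library.

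Among the genes named by rule, signs reversed as follows. Fbxw11 was -0.067 (median-of-ratios), -0.048 (quantile), -0.057 and -0.053 (edgeR with and without a filter), -0.093 (DESeq2) and -0.20 to 0.31 without a library. Fbxo7 was -0.00024 (median-of-ratios) and -0.051 (quantile). Fbxo5 was -0.072 (quantile) and -0.077 to 0.20 without a library. With a library left out, Fbxl17 ranged from -0.29 to 0.084, Fbxl22 from -0.52 to 0.058, Skp1a from -0.27 to 0.38, Fbxl5 from -0.72 to 0.027 and Fbxo42 from -0.30 to 0.22. The highest values came without NC1 for Fbxl17, Fbxl22 and Skp1a, and without NC2 for Fbxl5 and Fbxo42. Of the other members with a log2 fold change given above, Fbxo17 (-0.088) became 1.18 without NC1, 0.17 without HC1 and 0.10 without HC2, Fbxo4 became -0.033 without NC1, and Fbxo18 and Fbxo10 fell below 0 without NC3. Beyond fewer libraries or genes tested, the cause was not tested. Depth limits values under 0.207 RPM.

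Replicate numbers did not pair the libraries: the deviations of NC1 and HC1, NC2 and HC2, and NC3 and HC3 correlated at -0.35, 0.50 and -0.044 over genes. A fit with the replicate block, in which HC4 has no partner, gave 1 called member (lower, neither Fbxo38 nor Fbxl20), 2 SCF partners, 598 genes in all and -0.015 for Fbxo5.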
